A study of Mus musculus with 8 samples.

Results

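The 43 genes described here encode the machinery of mitosis: the kinases and cyclins that start it, the spindle checkpoint, the kinetochore, the spindle and its motors, the cytokinesis apparatus, and condensin with other proteins of mitotic chromosome structure. They were listed by name, and each is read on the probe set with the highest mean that the platform annotates to that symbol alone. All 43 of the 43 have such a probe set, among 19938 genes in all. The samples are primary nerve sheath malignancies (MPNST) from the NPcis mouse, a genetic model of cancers that lose Nf1, and all 8 arrays carry that background. The 4 groups of 2 arrays each received vehicle, rapamycin (an inhibitor of the kinase complex mTORC1) at 5 mg/kg (route labelled IP), PD-0325901 (an inhibitor of the kinase MEK) at 1.5 mg/kg (route labelled OG) 2 times a day, or both drugs at those doses, here called the combination, and treatment lasted 14 hours. The labels do not say that the arrays of a group come from separate animals or tumours, so p-values cover only the spread between these samples, which may be technical. The tumours are bulk tissue, in which fewer dividing cells and less RNA per dividing cell cannot be told apart.

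Cells enter mitosis when Cdk1, bound to a cyclin A or B, is activated by Cdc25 phosphatases, and they leave it when the anaphase-promoting complex with Cdc20 destroys the cyclins and releases separase. Most genes of this machinery are transcribed in a wave late in the cell cycle, so that their RNA is abundant in dividing cells and scarce in resting ones. The wave runs through short promoter elements: the cell cycle genes homology region, read by the MuvB complexes that hold either the repressive DREAM proteins or the activators B-Myb and FoxM1, and CCAAT boxes, bound by NF-Y. Ras signalling through MEK and ERK, which loss of Nf1 increases, and mTORC1 both feed into the decision to divide.

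RefSeq promoter windows, from 250 bases before to 50 after a start site (build GRCm38.p6), were used for 36 of the 43 genes (39 windows), and the letters of these elements were counted in them. The other 7 are Ccna2, Cdc25c, Aurkb, Tpx2, Dlgap5, Kif20a and Smc4. The letters TTTGAA, the core of the cell cycle genes homology region, occurred on either strand in 30 of the 39 windows (76.9%), against 17.9% of all 32851 windows and 16% of the 21263 windows of protein-coding genes. The variant TTTAAA, which reads alike on both strands, occurred in 20.5% against 13.2%. CCAAT, on either strand, occurred in 74.4% against 37.4%, and more than 1 CCAAT in 43.6% against 11.7%. No matches overlapped each other in the windows of the 36 genes (0 overlapping pairs). A match is a description of the sequence and not a measured site. The 150 bases before the start are shown for 6 genes with these letters and for Haus6, the gene whose 4 groups did not overlap, with matches on either strand in capitals. Capitals thus mark TTTGAA or its reverse complement, TTCAAA on this strand, and TTTAAA, and also mark CCAAT or its reverse complement, which reads ATTGG.
Cdk1: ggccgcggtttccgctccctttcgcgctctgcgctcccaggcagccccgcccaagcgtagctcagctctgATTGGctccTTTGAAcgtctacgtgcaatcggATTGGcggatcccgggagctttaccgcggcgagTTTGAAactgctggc
Plk1: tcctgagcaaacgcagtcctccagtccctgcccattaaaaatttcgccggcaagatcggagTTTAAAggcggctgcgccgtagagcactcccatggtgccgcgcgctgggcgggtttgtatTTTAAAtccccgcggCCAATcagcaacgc
Cdc20: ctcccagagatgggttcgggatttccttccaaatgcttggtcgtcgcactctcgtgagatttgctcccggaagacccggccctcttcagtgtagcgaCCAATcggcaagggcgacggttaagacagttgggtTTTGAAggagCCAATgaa
Kif11: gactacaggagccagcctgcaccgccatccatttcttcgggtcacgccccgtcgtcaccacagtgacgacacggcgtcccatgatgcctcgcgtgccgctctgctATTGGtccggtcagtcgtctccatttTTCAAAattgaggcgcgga
Ncapg: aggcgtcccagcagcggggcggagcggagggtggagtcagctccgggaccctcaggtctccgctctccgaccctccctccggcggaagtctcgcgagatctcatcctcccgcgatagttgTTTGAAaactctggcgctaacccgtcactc
Top2a: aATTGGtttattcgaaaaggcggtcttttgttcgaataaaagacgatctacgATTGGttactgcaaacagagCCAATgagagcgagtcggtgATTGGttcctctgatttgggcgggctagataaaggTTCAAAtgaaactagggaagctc
Haus6: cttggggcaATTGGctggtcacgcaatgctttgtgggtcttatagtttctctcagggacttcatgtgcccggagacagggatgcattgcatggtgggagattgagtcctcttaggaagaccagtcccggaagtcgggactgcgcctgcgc
These stretches, each 5′ to 3′ on the gene's own strand, lie at chr10:69352913-69353062 (minus strand), chr7:122159285-122159434 (plus), chr4:118437344-118437493 (minus), chr19:37376232-37376381 (plus), chr5:45669775-45669924 (plus), chr11:99024190-99024339 (minus) and chr4:86612056-86612205 (minus). The Haus6 window held 1 CCAAT match and neither TTTGAA nor TTTAAA. Melk, Ncaph, Nuf2 and Nusap1 held none of the 3 motifs in their windows, and Bub1 and Nek2 held CCAAT alone.

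On each of the 4 arrays with PD-0325901, most of the 43 mitotic genes lay below their mean over the vehicle arrays. Which genes did so differed between the arrays. The rapamycin arrays stood at opposite ends. Set against the mean of the vehicle arrays, the median of the 43 genes was -0.16 log2 on PD-0325901 array 1, -0.51 on PD-0325901 array 2, -0.28 on combination array 1 and -0.49 on combination array 2. It was -0.74 on rapamycin array 1 and 0.071 on rapamycin array 2. All 43 genes were higher on rapamycin array 2 than on rapamycin array 1 (the background is 52% of all genes), with a median gap of 0.77, against 0.021 between the vehicle arrays. Rapamycin array 1 was the lowest of the 8 arrays for 32 of the 43 genes (background 16.6% of all genes), and rapamycin array 2 the highest for 18 (background 16.4%). Neither vehicle array was the lowest for any of the 43 genes (0 and 0, backgrounds 12.4% and 11.5%).

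**Figure D1:**
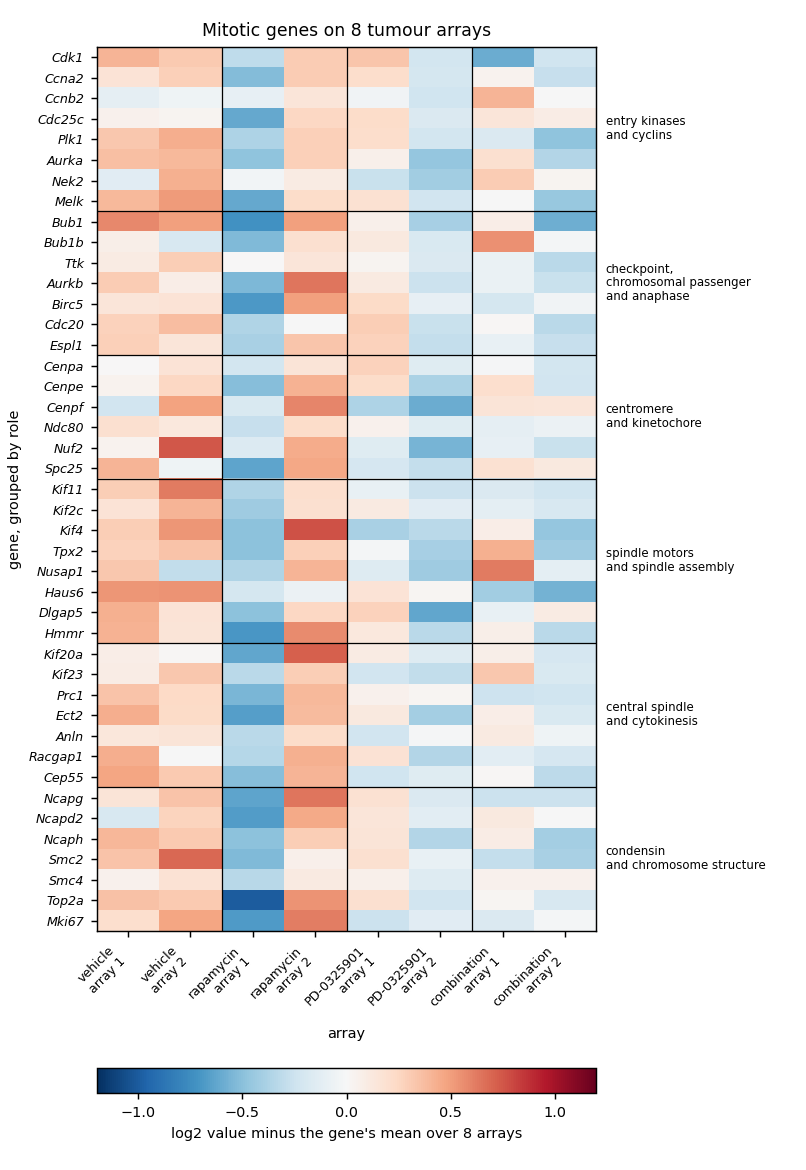
Each row is a gene, grouped by role, and each column an array; the colour is the log2 value minus the gene's mean over the 8 arrays, red above and blue below. The column of rapamycin array 1 is blue and that of rapamycin array 2 red for most genes, while on combination array 1 Ccnb2, Bub1b and Nusap1 are red and Haus6 and Cdk1 blue.

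**Figure D2:**
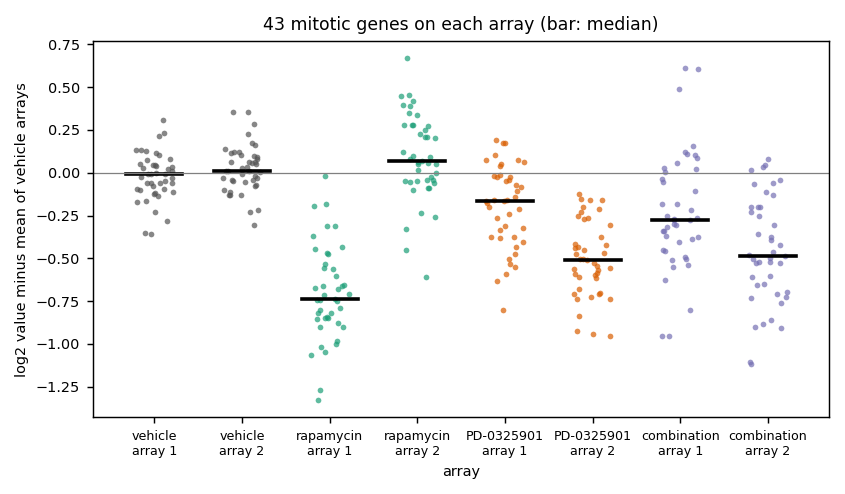
The log2 value of each of the 43 genes minus its mean over the vehicle arrays (vertical axis), on each array (horizontal axis), with the median of the 43 as a bar. The medians are -0.74 and 0.071 on the rapamycin arrays and lie between -0.16 and -0.51 on the 4 arrays with PD-0325901.

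The mean of the PD-0325901 arrays lay below that of the vehicle arrays for 42 of the 43 mitotic genes and above it for 1 (backgrounds 53.8% and 46.2% of all genes). The median log2 difference was -0.31 against -0.015 for all genes. Most of these genes partly moved together across the arrays, so the counts are not 43 separate observations. Their mean centred level was 0.23 and 0.27 on the vehicle arrays and 0.054 and -0.26 on PD-0325901 arrays 1 and 2. For 25 of the 43 both PD-0325901 arrays lay below both vehicle arrays (background 20.9%), and for 0 both lay above (background 17.6%). By role, the median was farthest from 0 among spindle motors and assembly factors (-0.46, 6 of 8 without overlap) and nearest to 0 among checkpoint and anaphase genes (-0.27, 2 of 7). In limma's fit over all genes, 0 of the 43 passed an adjusted p of 0.05, as did 0 of all genes (background 0%). At an unadjusted p under 0.05, 2 of the 43 were lower, Kif11 and Haus6, and 0 higher (backgrounds 2.38% and 3.47%). With each array left out in turn, 10 of the 43 genes took both signs, Ccnb2 (-0.15 to 0.039), Cdc25c (-0.21 to 0.18), Bub1b (-0.12 to 0.17), Birc5 (-0.26 to 0.072), Espl1 (-0.50 to 0.065), Cenpa (-0.23 to 0.19), Cenpe (-0.53 to 0.075), Nusap1 (-0.61 to 0.0052), Kif20a (-0.20 to 0.053) and Ncapd2 (-0.26 to 0.20). The median was -0.16 without PD-0325901 array 2 (34 of 43 below 0) and -0.51 without PD-0325901 array 1 (43 of 43).

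Among the motors, Kif11, the kinesin that pushes spindle poles apart, had log2 values of 10.12 and 10.45 on the vehicle arrays, 9.46 and 10.03 on the rapamycin arrays, 9.74 and 9.57 on the PD-0325901 arrays and 9.66 and 9.59 on the combination arrays. All 6 arrays with a drug lay below both vehicle arrays, and the difference of PD-0325901 from vehicle was -0.63 (SE 0.21, adjusted p = 0.754). Kif4, a chromosome-bound kinesin, had the largest difference of the 43 genes, -0.77 (SE 0.41, adjusted p = 0.962), with PD-0325901 arrays at 8.20 and 8.26 and vehicle arrays at 8.89 and 9.12. Tpx2, which activates Aurora A on the spindle, had a difference of -0.52, Hmmr, a spindle-associated hyaluronan receptor, of -0.39, and Kif2c, which depolymerizes microtubule ends, of -0.30, each without overlap. Dlgap5 (-0.47) and Nusap1 (-0.30), which stabilize spindle microtubules, overlapped with vehicle.

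In the kinetochore, Nuf2, a subunit of the NDC80 complex that grips microtubules, had values of 8.62 and 9.33 on the vehicle arrays, 8.42 and 9.03 on the rapamycin arrays, 8.44 and 8.02 on the PD-0325901 arrays and 8.49 and 8.32 on the combination arrays. Vehicle array 2 stood 0.71 above vehicle array 1, and the difference of PD-0325901 from vehicle was -0.75 (SE 0.31, adjusted p = 0.870). Its partners Ndc80 and Spc25 had differences of -0.20 and -0.43, both without overlap. Cenpf, a large protein of the outer kinetochore, had values of 8.81 and 9.52 on the vehicle arrays, 8.85 and 9.62 on the rapamycin arrays, 8.66 and 8.44 on the PD-0325901 arrays and 9.19 and 9.18 on the combination arrays. It was low on the PD-0325901 arrays and spread widely in the vehicle and rapamycin groups, with a difference of -0.61 (SE 0.32, adjusted p = 0.962) for PD-0325901 against vehicle. Cenpa, the centromeric histone, differed by -0.019 and Cenpe, a kinetochore motor, by -0.23, both with overlap.

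Of the kinases, Bub1, a checkpoint kinase at kinetochores, had values of 10.24 and 10.16 on the vehicle arrays, 8.93 and 10.16 on the rapamycin arrays, 9.72 and 9.26 on the PD-0325901 arrays and 9.74 and 9.08 on the combination arrays. Rapamycin array 1 was the lowest, and the PD-0325901 and combination arrays lay below both vehicle arrays, with a difference of -0.71 (SE 0.43, adjusted p = 0.996) for PD-0325901. Bub1b, the checkpoint protein that holds back Cdc20, was the 1 gene of the 43 above 0 in this comparison, at 0.024 (SE 0.30, adjusted p = 0.999), and its values were 9.71 and 9.45 on the vehicle arrays, 9.11 and 9.83 on the rapamycin arrays, 9.75 and 9.46 on the PD-0325901 arrays and 10.19 and 9.61 on the combination arrays. Combination array 1 was its highest array and rapamycin array 1 its lowest. Aurka, a spindle pole kinase, had a difference of -0.57, and Melk, a kinase of proliferating cells, of -0.47, both without overlap. Aurkb, the Aurora kinase of the chromosomal passenger complex, had -0.27 and its partner Birc5 -0.092, both with overlap.

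Ttk, the kinase that starts spindle checkpoint signalling, had values of 8.14 and 8.33 on the vehicle arrays, 8.04 and 8.18 on the rapamycin arrays, 8.07 and 7.86 on the PD-0325901 arrays and 7.96 and 7.71 on the combination arrays. The PD-0325901 and combination arrays lay below both vehicle arrays, with differences of -0.27 and -0.40. Nek2, a centrosome kinase, had values of 8.45 and 9.02 on the vehicle arrays, 8.55 and 8.69 on the rapamycin arrays, 8.33 and 8.17 on the PD-0325901 arrays and 8.89 and 8.62 on the combination arrays. It was low on the PD-0325901 arrays (-0.48 against vehicle) but not on the combination arrays (0.022). The cytokinesis genes Ect2, an activator of RhoA (-0.48), Kif23, a motor of the central spindle (-0.47), Anln, a scaffold of the contractile ring (-0.27), and Cep55, which recruits the abscission machinery (-0.59), did not overlap with vehicle, while Kif20a (-0.073) and Racgap1 (-0.31) did. Cep55 had values of 9.04 and 8.88 on the vehicle arrays, 8.05 and 8.97 on the rapamycin arrays, 8.33 and 8.42 on the PD-0325901 arrays and 8.58 and 8.25 on the combination arrays.

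The combination arrays were compared with vehicle to ask what both drugs give together. Of the 43 genes 36 were lower and 7 higher (backgrounds 53.7% and 46.3%), with a median of -0.39 against -0.019 for all genes, and 30 lay below vehicle without overlap (background 22.3%). Above vehicle without overlap lay 2, Ccnb2 and Cdc25c (background 17.9%). In limma's fit 0 of the 43 and 0 of all genes passed (background 0%), while 6 of the 43 had an unadjusted p under 0.05 as lower, Haus6, Smc2, Cdk1, Plk1, Kif11 and Ttk (background 4%), and 0 as higher (background 5.08%). With each array left out in turn, 10 of the 43 took both signs, Nek2 (-0.26 to 0.31), Cenpe (-0.37 to 0.054), Cenpf (-0.33 to 0.38), Spc25 (-0.26 to 0.20), Tpx2 (-0.73 to 0.12), Nusap1 (-0.13 to 0.61), Kif20a (-0.25 to 0.023), Kif23 (-0.39 to 0.11), Ncapd2 (-0.21 to 0.25) and Smc4 (-0.12 to 0.0049). The median was -0.49 without combination array 1 and -0.28 without combination array 2.

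Cdk1, the kinase that drives entry into mitosis, had values of 10.23 and 10.14 on the vehicle arrays, 9.52 and 10.13 on the rapamycin arrays, 10.16 and 9.60 on the PD-0325901 arrays and 9.23 and 9.58 on the combination arrays. Both combination arrays were below both vehicle and both PD-0325901 arrays, with differences of -0.78 (SE 0.27, adjusted p = 0.485) from vehicle and -0.47 (SE 0.27, adjusted p = 0.999832) from PD-0325901 alone. Plk1, a kinase that promotes spindle assembly and mitotic entry, had values of 10.60 and 10.72 on the vehicle arrays, 9.91 and 10.57 on the rapamycin arrays, 10.50 and 10.06 on the PD-0325901 arrays and 10.11 and 9.80 on the combination arrays. Its combination arrays differed from vehicle by -0.70 (SE 0.26, adjusted p = 0.508), and all 6 arrays with a drug lay below both vehicle arrays. Smc2, the core ATPase of condensin, had values of 9.84 and 10.18 on the vehicle arrays, 8.96 and 9.56 on the rapamycin arrays, 9.69 and 9.40 on the PD-0325901 arrays and 9.21 and 9.11 on the combination arrays. All 6 arrays with a drug lay below vehicle for it too, and the combination differed from vehicle by -0.85 (SE 0.23, adjusted p = 0.436).

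The other condensin subunits did not follow Smc2 closely. Against vehicle, the combination gave -0.52 for Ncaph and -0.50 for Ncapg, both without overlap, but -0.057 for Smc4, the ATPase that pairs with Smc2, and 0.021 for Ncapd2. Top2a, the topoisomerase that untangles sister chromatids, had values of 10.75 and 10.72 on the vehicle arrays, 9.41 and 10.94 on the rapamycin arrays, 10.60 and 10.17 on the PD-0325901 arrays and 10.42 and 10.21 on the combination arrays. It had the widest gap between the rapamycin arrays of the 43 genes, 1.54. Its second single-gene probe set gave values between 5.49 and 6.12 on the 8 arrays. Mki67, the coat protein of mitotic chromosomes used as a marker of proliferation, had values of 10.70 and 10.97 on the vehicle arrays, 9.82 and 11.11 on the rapamycin arrays, 10.25 and 10.36 on the PD-0325901 arrays and 10.33 and 10.48 on the combination arrays. The 4 arrays with PD-0325901 lay between 10.25 and 10.48, below both vehicle arrays and between the rapamycin arrays.

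Of the genes near the end of mitosis, Cdc20, the activator of the anaphase-promoting complex, had values of 9.62 and 9.72 on the vehicle arrays, 8.99 and 9.34 on the rapamycin arrays, 9.64 and 9.08 on the PD-0325901 arrays and 9.36 and 9.02 on the combination arrays. Rapamycin and combination arrays lay below both vehicle arrays, with differences of -0.51 and -0.48. Espl1, the separase that cuts cohesin, had -0.39 for the combination against vehicle. Prc1, which bundles the central spindle, had values of 9.85 and 9.75 on the vehicle arrays, 8.96 and 9.89 on the rapamycin arrays, 9.56 and 9.53 on the PD-0325901 arrays and 9.26 and 9.28 on the combination arrays. Its combination arrays lay below both vehicle and both PD-0325901 arrays, with differences of -0.53 and -0.28.

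Higher with both drugs than with vehicle were 7 of the 43 genes (background 46.3%), and 2 of them without overlap (background 17.9%). Ccnb2, a B-type cyclin, had values of 10.85 and 10.90 on the vehicle arrays, 10.86 and 11.10 on the rapamycin arrays, 10.91 and 10.72 on the PD-0325901 arrays and 11.37 and 10.95 on the combination arrays. Both combination arrays were above both vehicle and both PD-0325901 arrays, by 0.28 (SE 0.17, adjusted p = 0.686) and 0.34 (SE 0.17, adjusted p = 0.999832). Cdc25c, a phosphatase that activates Cdk1, had values of 8.08 and 8.05 on the vehicle arrays, 7.40 and 8.27 on the rapamycin arrays, 8.24 and 7.85 on the PD-0325901 arrays and 8.17 and 8.11 on the combination arrays. Its combination arrays differed from vehicle by 0.074, and rapamycin array 1 stood 0.45 below its next lowest array. Nusap1 had values of 9.55 and 8.93 on the vehicle arrays, 8.87 and 9.64 on the rapamycin arrays, 9.07 and 8.80 on the PD-0325901 arrays and 9.85 and 9.11 on the combination arrays. Combination array 1 was its highest array, and vehicle array 2 lay between the PD-0325901 arrays. Its combination arrays differed from vehicle by 0.24, with overlap, and by -0.13 when combination array 1 was left out. Ccna2, the A-type cyclin, followed the other genes, with differences of -0.34 for the combination and -0.22 for PD-0325901 against vehicle.

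**Figure D3:**
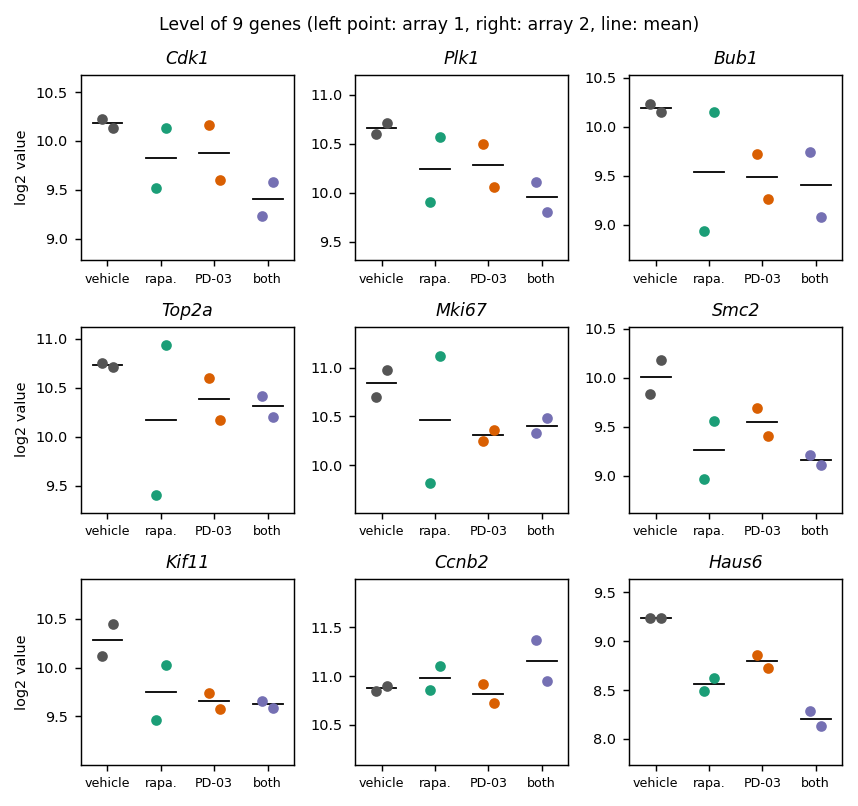
Log2 values (vertical axis, the same span of 1.9 log2 in each panel) of 9 genes in the vehicle, rapamycin (rapa.), PD-0325901 (PD-03) and combination (both) groups; the left point of a pair is array 1, the right point array 2 and the line their mean. Bub1, Top2a and Mki67 show the wide gap between the rapamycin arrays, and the 4 groups of Haus6 do not overlap.

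For rapamycin alone against vehicle, 40 of the 43 genes were lower and 3 higher (backgrounds 54.1% and 45.9%), with a median of -0.27 against -0.018 for all genes, but the arrays of the group did not repeat each other. The median was 0.071 without rapamycin array 1, with 16 of 43 below 0, and -0.74 without rapamycin array 2, with 43 of 43 below 0. Without overlap 10 of the 43 (23.3%) were lower, near the background of 17.9%, and 0 higher (background 12.5%). Those lower were Smc2, Haus6, Bub1, Melk, Kif11, Cdc20, Aurka, Ncaph, Plk1 and Cdk1. In limma's fit 0 of the 43 and 0 of all genes passed (background 0%). At an unadjusted p under 0.05, 3 were lower, Smc2, Haus6 and Kif11, and 0 higher (backgrounds 2.15% and 2.77%).

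Adding PD-0325901 to rapamycin gave a median of -0.048 over the 43 genes, with 26 lower and 17 higher (backgrounds 51.7% and 48.3%). This value was -0.42 without rapamycin array 1 and 0.37 without rapamycin array 2. Both groups separated without overlap for 2 lower genes, Haus6 (-0.35) and Ttk (-0.28), and 0 higher ones (backgrounds 15.1% and 16%). Adding rapamycin to PD-0325901 gave a median of -0.031, with 23 lower and 20 higher (backgrounds 52.1% and 47.9%), and it was 0.13 without PD-0325901 array 1 and -0.24 without PD-0325901 array 2. It was -0.15 and 0.096 without combination arrays 1 and 2, and these left-out values were -0.17 and 0.068 for the combination against rapamycin. Haus6, Cdk1, Smc2, Prc1 and Ncapg were lower in the combination than with PD-0325901 without overlap (5 genes, 11.6%, background 18.2%). Cenpf, Nusap1, Nek2, Spc25, Ccnb2 and Kif23 were higher (6 genes, 14%, background 16.3%). Both shares lay below the background. Kif23 had values of 9.86 and 10.10 on the vehicle arrays, 9.44 and 10.07 on the rapamycin arrays, 9.54 and 9.47 on the PD-0325901 arrays and 10.09 and 9.59 on the combination arrays. In limma's fit 0 and 0 of the 43 passed in these comparisons (backgrounds 0% and 0%), with 1 at an unadjusted p under 0.05 in each, Haus6, as lower (backgrounds 2.71% and 1.27%), and 0 as higher (backgrounds 3.95% and 1.74%).

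Averaged over the presence of the other drug, PD-0325901 gave a median of -0.19 with 38 of 43 lower and 5 higher (backgrounds 54% and 46%). The value was -0.43 when rapamycin array 1 was left out and -0.0055 when rapamycin array 2 was. It was -0.30 and -0.12 when PD-0325901 array 1 or 2 was left out. Rapamycin gave -0.14 with 36 of 43 lower and 7 higher (backgrounds 53.8% and 46.2%), and 0.067 and -0.37 without its arrays 1 and 2, and -0.067 and -0.26 without those of PD-0325901. For 0 of the 43 genes, in either direction, did the PD-0325901 and combination arrays separate from the other 4 (backgrounds 2.39% lower and 3.34% higher), and those with rapamycin for 1 gene, Haus6, as lower (background 1.94%) and 0 as higher (background 1.41%). In limma's fit 0 and 0 of the 43 passed (backgrounds 0% and 0%). With PD-0325901 3 genes had an unadjusted p under 0.05 as lower and 0 as higher (backgrounds 4.14% and 5.47%), Haus6, Ttk with -0.27 (SE 0.10, adjusted p = 0.481) and Kif11 with -0.38 (SE 0.15, adjusted p = 0.511). With rapamycin 2 did as lower and 0 as higher (backgrounds 2.4% and 3.15%), Haus6 and Smc2, the latter with -0.57 (SE 0.16, adjusted p = 0.774).

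The interaction of the drugs, the difference of PD-0325901 in the presence of rapamycin minus that in its absence, had a median of 0.34 over the 43 genes, against 0.0089 for all genes. Leaving out rapamycin array 1 gave -0.038 and leaving out rapamycin array 2 gave 0.72. Leaving out PD-0325901 array 1 or 2 gave 0.44 or 0.14, and combination array 1 or 2 0.17 or 0.44. None of the 43 passed in limma's fit (0, background 0%), and 0 had an unadjusted p under 0.05 (backgrounds 1.03% higher and 1.14% lower). The largest departure by p was that of Nek2, 0.61 (SE 0.30, adjusted p = 0.999905), followed by Kif11, 0.51 (SE 0.30, adjusted p = 0.999905), and Kif23, 0.55 (SE 0.36, adjusted p = 0.999905). In the other direction Cdk1 (-0.12), Cenpa (-0.065) and Kif20a (-0.040) had the smallest p below 0. Cenpa, the centromeric histone, had values of 10.51 and 10.67 on the vehicle arrays, 10.28 and 10.65 on the rapamycin arrays, 10.78 and 10.36 on the PD-0325901 arrays and 10.48 and 10.28 on the combination arrays. Its combination arrays were below both vehicle arrays. Kif20a, a kinesin of the central spindle, had values of 10.09 and 10.03 on the vehicle arrays, 9.39 and 10.73 on the rapamycin arrays, 10.11 and 9.86 on the PD-0325901 arrays and 10.08 and 9.81 on the combination arrays. All groups overlapped for it.

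**Figure D4:**
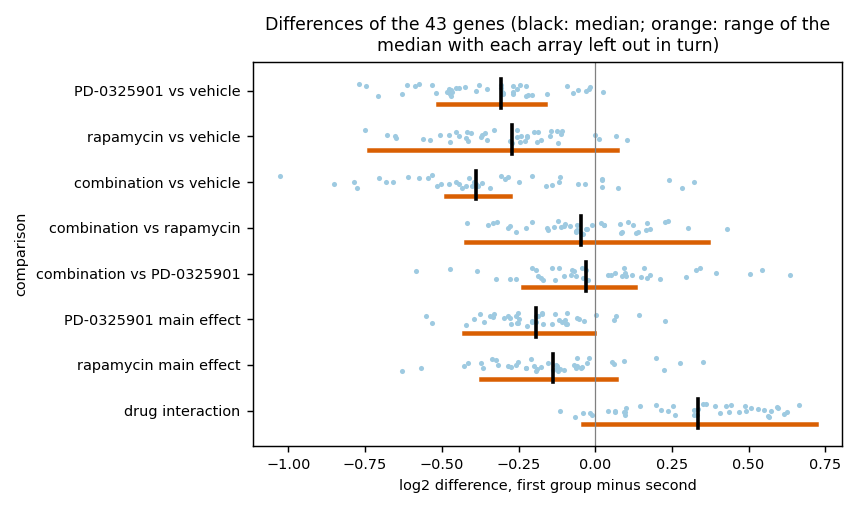
Log2 difference of each of the 43 genes (blue points, horizontal axis) in 8 comparisons (vertical axis), with their median in black and, in orange, the range of that median when each of the 8 arrays was left out in turn. The orange range lies below 0 for both comparisons of PD-0325901 or the combination with vehicle and spans 0 for rapamycin against vehicle (-0.74 to 0.071).

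Haus6, a subunit of the augmin complex that lets new microtubules branch from spindle microtubules, had values of 9.23 and 9.24 on the vehicle arrays, 8.49 and 8.63 on the rapamycin arrays, 8.86 and 8.73 on the PD-0325901 arrays and 8.28 and 8.13 on the combination arrays. The groups were ordered vehicle, PD-0325901, rapamycin and combination from high to low, and no arrays of any 2 groups overlapped. Haus6 was the 1 gene of the 43 of which this held, against 1.2% of all genes, and with 1 gene nothing is read from that share. The gap within a group was at most 0.15, while the median absolute gap of the 43 genes was 0.16 in the vehicle, 0.77 in the rapamycin, 0.33 in the PD-0325901 and 0.21 in the combination group. The difference from vehicle was -1.03 (SE 0.11, adjusted p = 0.351) for the combination, -0.68 (SE 0.11, adjusted p = 0.964) for rapamycin and -0.44 (SE 0.11, adjusted p = 0.596) for PD-0325901. The combination differed from rapamycin by -0.35 (SE 0.11, adjusted p = 0.635) and from PD-0325901 by -0.58 (SE 0.11, adjusted p = 0.999832). The main effects were -0.63 (SE 0.078, adjusted p = 0.752) for rapamycin and -0.40 (SE 0.078, adjusted p = 0.205) for PD-0325901, so that no comparison of Haus6 passed the threshold over all genes.

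Most of the 43 genes shared part of their variation across the arrays, to differing degrees. Part of it was the gap between rapamycin arrays 1 and 2, at mean centred levels of -0.45 and 0.34 over the 43. The subtraction below was run on the 43 genes alone, so it has no background. After the mean of the other 42 genes on each array was subtracted, the standard deviation over the 8 arrays was smaller for 39 of the 43, and its median went from 0.36 to 0.19. It was lowest for Ccna2 (0.079), Kif2c (0.11) and Espl1 (0.12), and highest for Cenpf (0.35) and Haus6 (0.35). Some genes kept most of theirs, among them Cenpf (from 0.41), Haus6 (from 0.40), Nusap1 (0.39 to 0.34) and Bub1b (0.32 to 0.30). Relative to the other 42, Haus6 stood at 0.32 and 0.27 on the vehicle arrays and -0.45 and -0.37 on the combination arrays. Cdk1 stood at 0.18 and 0.042 on the vehicle arrays and -0.63 and -0.037 on the combination arrays, so that its low level relative to the others was that of combination array 1. Ccnb2 lay on the opposite side, at -0.34 and -0.34 on the vehicle arrays and 0.39 and 0.21 on the combination arrays. Bub1b stood at -0.16 and -0.48 on the vehicle arrays and 0.54 and 0.19 on the combination arrays, with a wide gap in both groups. Ccnb2, Nek2, Ttk and Smc4 were the 4 genes whose standard deviation was not smaller after the subtraction.

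Other genes of the same processes were counted from lists written by name. Of 50 other mitotic genes, 46 were lower with PD-0325901 alone than with vehicle (background 53.8% of all genes), with a median of -0.29. Without overlap 27 were lower and 1 higher (backgrounds 20.9% and 17.6%). For the combination 43 were lower (background 53.7%), with a median of -0.26, and without overlap 25 were lower and 2 higher (backgrounds 22.3% and 17.9%). For rapamycin 37 were lower (background 54.1%), with a median of -0.20, and the 10 lower without overlap are near the background of 17.9%. No list gene passed in limma's fit for any of the 3 comparisons (0), while 4, 3 and 3 of the 50 had an unadjusted p under 0.05 as lower for PD-0325901, the combination and rapamycin, and 1, 2 and 0 as higher (backgrounds 2.38%, 4% and 2.15% lower, 3.47%, 5.08% and 2.77% higher). The 1 higher without overlap for PD-0325901 was Pttg1, securin, the inhibitor of separase, with values of 8.34 and 8.27 on the vehicle arrays, 8.52 and 8.60 on the rapamycin arrays, 8.73 and 8.76 on the PD-0325901 arrays and 8.74 and 8.95 on the combination arrays. It was higher on the PD-0325901 and combination arrays than on both vehicle arrays, by 0.44 (SE 0.11, adjusted p = 0.596) and 0.54 (SE 0.11, adjusted p = 0.359). Bub3, a checkpoint protein that carries Bub1 to kinetochores, differed by -0.36 (SE 0.098, adjusted p = 0.752) with rapamycin as a main effect, its 4 arrays with the drug below the other 4. Cdca8, a subunit of the chromosomal passenger complex, differed by -0.46 and Mastl, a kinase that restrains a Cdk1-opposing phosphatase, by 0.42 with rapamycin, both with overlap. Sgo2a, a protector of centromeric cohesion, and Cit, a cytokinesis kinase, differed by -0.35 and -0.53 with PD-0325901.

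The transcription factors of the mitotic wave gave mixed values. Mybl2, which encodes B-Myb, had values of 9.53 and 9.76 on the vehicle arrays, 8.32 and 9.44 on the rapamycin arrays, 8.95 and 8.81 on the PD-0325901 arrays and 8.84 and 8.35 on the combination arrays, with -1.05 (SE 0.37, adjusted p = 0.489) for the combination against vehicle. The 4 arrays with PD-0325901 and both rapamycin arrays lay below both vehicle arrays. Foxm1 had values of 9.49 and 9.90 on the vehicle arrays, 8.69 and 10.39 on the rapamycin arrays, 9.08 and 9.36 on the PD-0325901 arrays and 9.46 and 9.54 on the combination arrays, a gap of 1.70 between the rapamycin arrays, and -0.48 (SE 0.52, adjusted p = 0.999) for PD-0325901 against vehicle. Mybl1, a relative of B-Myb, had a main effect of -0.68 (SE 0.12, adjusted p = 0.169) for PD-0325901 with no overlap between 4 and 4 arrays, and 0.33 for rapamycin. Lin54, the DNA-binding subunit of MuvB, and E2f1 differed by -0.38 and -0.37 with PD-0325901, and Lin52, another MuvB subunit, and Rb1, the retinoblastoma repressor, by 0.28 and 0.35 with rapamycin. Of 25 regulators listed, 23 were measured, and Trp53 and Cdkn1a were not. Of the 23 regulators, 18 were lower with PD-0325901 alone (background 53.8%, median -0.17), 12 lower and 2 higher without overlap (backgrounds 20.9% and 17.6%). With the combination 15 were lower (background 53.7%, median -0.20), 10 lower and 6 higher without overlap (backgrounds 22.3% and 17.9%). In limma's fit 0 of the 23 passed (background 0%). At an unadjusted p under 0.05, 1 was lower in each comparison (backgrounds 2.38% and 4%), and 0 and 3 were higher (backgrounds 3.47% and 5.08%).

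Complexes that act in mitosis but also outside it had medians nearer 0 than the 43 genes for PD-0325901 and the combination. The other 14 condensin and cohesin genes had a median of -0.20 for PD-0325901 and -0.22 for the combination against vehicle, with 6 and 7 lower without overlap (backgrounds 20.9% and 22.3%) and 1 and 0 higher (backgrounds 17.6% and 17.9%). Esco2, which acetylates cohesin during replication, differed by -0.66 (SE 0.27, adjusted p = 0.525) with PD-0325901 as a main effect and Cdca5, sororin, by -0.41. Both depended on the rapamycin arrays, with -0.96 and -0.64 without rapamycin array 1 and -0.36 and -0.19 without rapamycin array 2. The cohesin subunit Stag2 differed by -0.23 with PD-0325901 and 0.27 with rapamycin, Stag1 by 0.33 and Smc3 by -0.28 with rapamycin. The 13 other augmin and gamma-tubulin ring genes had medians of 0.015 and -0.10, and their differences between the combination and vehicle ran from -0.69 to 0.44, beside -1.03 for Haus6. Among them Haus7 and Nedd1, which targets the ring to the spindle, differed by -0.59 and -0.29 with PD-0325901, Haus8 by 0.27, and with rapamycin Haus5 by -0.30, Nedd1 by -0.16 and Tubgcp4 by 0.30. With each array left out in turn, Haus7 ran from -0.85 to -0.33 and Haus8 from 0.093 to 0.45 with PD-0325901, the lowest for Haus8 without rapamycin array 1. With rapamycin Tubgcp4 ran from 0.13 to 0.46, the lowest without rapamycin array 2, and Nedd1 from -0.26 to -0.073. The 14 genes of the anaphase-promoting complex had medians of -0.0053 and 0.035, with 0.35 for the catalytic subunit Anapc2, 0.17 for Anapc11 and -0.22 for Cdc27 with PD-0325901, and 0.38 for Anapc2, -0.25 for Cdc26 and 0.17 for Anapc13 with rapamycin. Anapc13 was 0.026 without combination array 1 and Cdc27 -0.11 without rapamycin array 2. In these 3 lists 0 genes passed in limma's fit for either main effect. As lower and higher at an unadjusted p under 0.05 were 2 and 1 of their 41 genes with PD-0325901 (backgrounds 4.14% and 5.47%), and 1 and 3 with rapamycin (backgrounds 2.4% and 3.15%), counts that lie near the background.

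**Figure D5:**
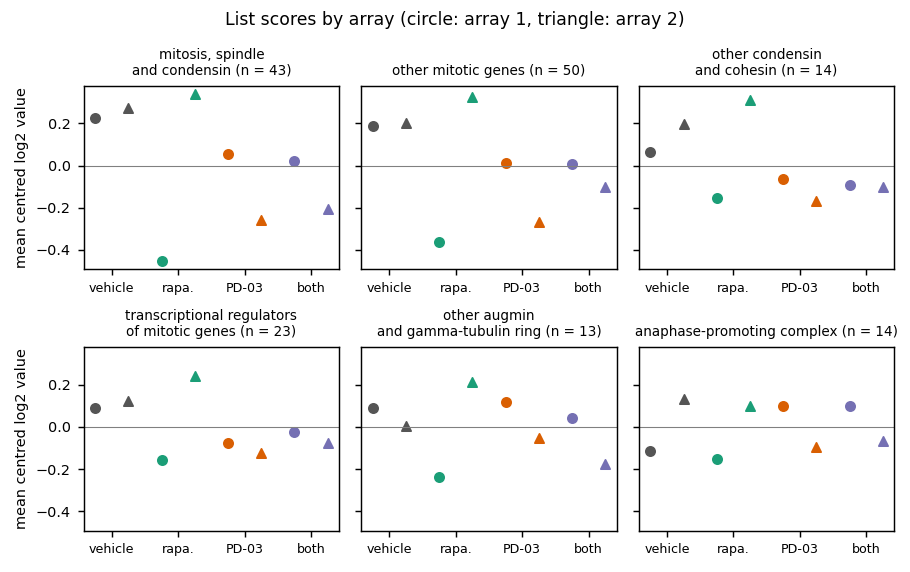
Mean of the genes of a list on each array, each gene centred on its mean over the 8 arrays (vertical axis, log2), by group (horizontal axis; rapa. is rapamycin, PD-03 PD-0325901 and both the combination), with array 1 as a circle and array 2 as a triangle. The other mitotic genes run from -0.36 on rapamycin array 1 to 0.32 on rapamycin array 2, and the anaphase-promoting complex genes stay within -0.15 to 0.13.

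In the promoters of the other mitotic genes the letters TTTGAA occurred in 26 of 48 windows (54.2%), and CCAAT occurred in 72.9% of them. The background over all windows is 17.9% for TTTGAA and 37.4% for CCAAT. In the other condensin and cohesin genes the shares were 36.4% and 36.4% of 11 windows, and in the regulators 27.6% and 44.8% of 29. In the augmin and gamma-tubulin ring genes TTTGAA occurred in 0 and CCAAT in 3 of 11 windows. In the anaphase-promoting complex genes TTTGAA occurred in 13.3% and CCAAT in 53.3% of 15.

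Across the series the medians of the 8 arrays lie between 7.79 and 7.90, and the correlation across probe sets was lowest between the rapamycin arrays (0.961) among all 28 pairs. Markers of other cells also differed between groups and arrays. Macrophage markers (10 of 10 measured) were higher in all 10 genes for PD-0325901 against vehicle (background 46.2%). Their mean centred levels were 0.31 to 0.49 on the PD-0325901 arrays, -0.10 to 0.33 on the combination arrays, -0.39 to -0.13 on the vehicle arrays and -0.28 to -0.22 on the rapamycin arrays. T and NK cell markers (10 of 10) were at -0.13 to 0.64, 0.14 to 0.99, -0.39 to -0.08 and -0.66 to -0.52 in the same order. Endothelial markers (8 of 8) were at -0.41 to 0.13 on the PD-0325901 arrays, -0.36 to -0.26 on the combination arrays, -0.13 to 0.25 on the vehicle arrays and 0.17 to 0.61 on the rapamycin arrays. All 8 were lower for the main effect of PD-0325901 (background 54%), with a median of -0.47. In limma's fit 4 of them had an unadjusted p under 0.05 as lower (background 4.14%), while 0 passed the adjusted threshold. For the same effect 7 of the 10 macrophage and 8 of the 10 T and NK cell markers had an unadjusted p under 0.05 as higher (background 5.47%), and 0 passed. Rapamycin array 1 had the highest mast cell (1.26) and endothelial (0.61) levels of the 8 arrays, rapamycin array 2 the highest skeletal muscle level (1.66, with the muscle creatine kinase Ckm at 10.91), and PD-0325901 array 2 the highest erythroid level (0.86, with the haem synthesis enzyme Alas2 at 11.50 against 7.53 to 8.74 elsewhere). Their part in the levels of the 43 genes was not tested. The Schwann cell markers that define the tumour's lineage had mean centred levels of -0.16 to 0.14 over all arrays. Of these Sox10 had log2 values of 7.85 to 8.17 and S100b of 7.12 to 7.32. Cdh19 had 5.44 and 5.94 on the vehicle arrays, 5.66 and 5.66 on the rapamycin arrays, 6.98 and 7.02 on the PD-0325901 arrays and 5.40 and 7.34 on the combination arrays, a difference of 1.31 (SE 0.59, adjusted p = 0.899) between PD-0325901 and vehicle. Since no log2 value here stands for 0, whether a marker is absent cannot be read from them.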

How the data were processed

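RNA of 8 tumour samples was hybridised to Affymetrix arrays after amplification with a whole-transcript kit, per the labels' protocols. The authors' deposited table gives 1 log2 value per probe set and array, a scale read from the range of the values (3.36 to 14.36). For software, background correction and normalization the authors' choices are not given in sources used here. Of 35512 probe sets, 21789 have a single gene symbol in the platform annotation, 1621 several, 12101 none, and 1 is empty. Each gene was read on its probe set with the highest mean, which left 19938 genes (1 of the 43, Top2a, had more than 1). No filter on low values was applied. Groups and array numbers come from the sample titles.

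A model of 4 group means was fitted to all genes in R 4.3.3 by limma 3.58.1 (two-sided moderated test from lmFit, then eBayes; 4 residual degrees of freedom), after a test on simulated data. Benjamini-Hochberg adjustment ran over the p-values of all genes, with a threshold of 0.05. In the simulated data this called 38 of 100 genes changed by 1 log2 for PD-0325901 against vehicle. A count of 0 past the threshold therefore does not show that no gene changed. Differences are in log2 between group means, and SE is the standard error from limma; the number of arrays limits its precision. An exact permutation test of 2 against 2 arrays cannot go below p = 0.333. Genes and lists were chosen with earlier results of these data known, so no test over a list was made. Genes with full values were those with the 3 smallest p in each direction of a comparison, the smallest p in each role for each main effect, and Cdk1, Top2a and Mki67. Plk1, Bub1 and Kif4 were added after their values were seen. Alternative scalings, filters, priors, blocks and left-out arrays are given at the end. From each other list the 3 smallest p for each main effect were taken, with Foxm1 and Mybl2.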

Additional observations from a re-analysis of the deposited data

How the results depend on the processing

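The count of the 43 genes past the threshold was 0 in all 8 comparisons, and it was also 0 with quantile normalization, median centring, only genes above the median level, the mean of a gene's probe sets, limma's variance trend and robust prior, the array number as a replicate block, only the groups compared (not run for the interaction), a threshold of 0.1, and without each array in turn. With 0 of all genes past the threshold in the fit of the report, an unchanged 0 says nothing about stability. Over all genes the count past the threshold went from 0 to at most 22, for the main effect of PD-0325901 with only the groups compared, and to at most 15 with an array left out (rapamycin against vehicle without rapamycin array 2). The block on the array number left every count at 0 and the median of PD-0325901 against vehicle at -0.31; the labels do not say that the numbers pair samples, and the array 1 minus array 2 differences correlated between groups at -0.28 to 0.18 across genes. Under these settings, leave-outs aside, no median of the 43 genes moved by more than the spread between replicates (0.31). That spread is the pooled within-group standard deviation of the mean level of the 43 genes. It comes mostly from the rapamycin arrays, at -0.45 and 0.34, and is as large as the median of PD-0325901 against vehicle. A move smaller than it therefore says little about stability. With arrays left out in turn the median ranged from -0.51 to -0.16 for PD-0325901 and -0.49 to -0.28 for the combination against vehicle, -0.74 to 0.071 for rapamycin against vehicle, -0.42 to 0.37 and -0.24 to 0.13 for the combination against rapamycin and PD-0325901, -0.43 to -0.0055 and -0.37 to 0.067 for the main effects of PD-0325901 and rapamycin, and -0.038 to 0.72 for the interaction. Among genes with full values, the ranges that turned the sign of a named difference were -0.12 to 0.17 for Bub1b with PD-0325901 against vehicle; -0.018 to 0.23, -0.31 to 0.45 and -0.37 to 0.39 for Ccnb2, Cenpf and Nusap1 with rapamycin against vehicle; -0.13 to 0.61 for Nusap1 with the combination against vehicle; -0.13 to 0.74 and -0.027 to 0.39 for Cdc25c and Ccnb2 with the combination against rapamycin. For main effects they were -0.074 to 0.36, -0.042 to 0.16, -0.49 to 0.28 and -0.62 to 0.025 for Cdc25c, Ccnb2, Top2a and Mki67 with PD-0325901, and -0.70 to 0.069 and -0.46 to 0.19 for Top2a and Mki67 with rapamycin. Over all 43 genes, in ranges added after the data were seen, 10, 28 and 10 spanned 0 for PD-0325901, rapamycin and the combination against vehicle. 38 and 25 did for the combination against rapamycin and PD-0325901, and 22 and 24 for the main effects of PD-0325901 and rapamycin. For the interaction, ranges that spanned 0 were -0.42 to 0.19 for Cdk1, -0.28 to 0.15 for Cenpa and -0.71 to 0.63 for Kif20a. The comparison Nusap1, rapamycin vs vehicle was also -0.022 with quantile normalization and -0.00314 with median centring; the cause was not tested.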

Other observations

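Markers of further cell types that a bulk tumour can hold varied as follows, as means of genes centred over the 8 arrays (log2). Fibroblast markers (9 of 9 measured) were at -0.97 to 0.54 on the vehicle arrays, -0.83 to 0.52 on the rapamycin arrays, 0.24 to 0.33 on the PD-0325901 arrays and -0.30 to 0.47 on the combination arrays, and the vehicle and rapamycin groups each held a high and a low array. Neutrophil markers (8 of 8) were at -0.20 to -0.14 on the vehicle arrays, -0.31 to 0.084 on the rapamycin arrays, -0.029 to 0.79 on the PD-0325901 arrays and -0.34 to 0.14 on the combination arrays. Markers of pericytes and smooth muscle (7 of 7) were at -0.43 to 0.46 on the vehicle arrays, 0.094 to 0.18 on the rapamycin arrays, -0.55 to 0.14 on the PD-0325901 arrays and -0.40 to 0.50 on the combination arrays. B and plasma cell markers (6 of 7) were at -0.072 to 0.041 on the vehicle arrays, -0.37 to 0.051 on the rapamycin arrays, -0.096 to 0.42 on the PD-0325901 arrays and -0.21 to 0.24 on the combination arrays. Epidermal markers (6 of 6) stayed within -0.080 to 0.092 on all arrays. The part of these cells in the levels of the mitotic genes was not tested.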
